A study of Mus musculus with 12 samples.

Results

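The 5 genes described here are 4 chemokines of the CC family, *Ccl17*, *Ccl9*, *Ccl3* and *Ccl2*, and the chemokine receptor *Cxcr1*. They were selected on their measured difference between *Scnn1b*-Tg and WT mice in these RNAseq data, so that difference is given here as a description, with no p-value, and its calls are only counts beside those over all rows. The count table has 19161 rows without gene names, of which 1999 were paired with a gene, and the 5 genes are 5 of these. Every paired gene comes from a list selected for a small p-value of the same genotype contrast, so genes without a pairing were not analysed here. Count rows were compared over 12 libraries of airway macrophages (AMs) sorted as CD45+ Siglec-F+ CD11c+ cells from dispase-digested lungs. The mice were 6-week-old females on the C57BL/6 background, with WT littermates as controls, and each genotype has 6 libraries. *Scnn1b*-Tg mice carry a transgene for the beta subunit of the epithelial sodium channel under the club cell secretory protein promoter, which is active in the club cells of the airway epithelium. The labels give 4 batches. Batches 1, 2 and 3 hold 1 library of each genotype (replicates 1, 2 and 3), and batch 4 holds 3 of each (replicates 4, 5 and 6).

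Chemokines are small secreted proteins that bind G protein-coupled receptors on leukocytes and direct their migration. Macrophages of the airways are a main source of them in the lung. CCL17 binds CCR4 on T cells, CCL2 draws monocytes through CCR2, CCL3 and the rodent chemokine CCL9 bind CCR1. CXCR1 and CXCR2 are the receptors for the neutrophil-attracting CXC chemokines and are best known from neutrophils.

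Totals per library lay between 40259958 and 121813289 counts. They were lower in batch 4, with at most 51832335 counts against at least 65764040 in batches 1 to 3. The counts derive from coverage, so these totals are not numbers of reads and do not give the sequencing depth. Within batch 4 the titles carry 1 flow-cell name for the WT libraries and another for the *Scnn1b*-Tg libraries, so flow cell and genotype cannot be told apart there. The labels describe paired-end and single-end libraries made with different kits and do not say which library is which. The transgene's own gene, *Scnn1b*, had 71.7, 53.8 and 1.87 CPM in the *Scnn1b*-Tg and 11.6, 12.7 and 1.48 CPM in the WT libraries of batches 1, 2 and 3, and 1.16 to 4.39 CPM against 0 to 0.299 CPM in batch 4. The 3 tested genes of the epithelium list, *Scnn1b* among them, summed to 234 and 197 CPM in *Scnn1b*-Tg replicates 1 and 2 and to between 101 and 122.4 CPM in replicates 3 to 6. Most of the sum was *Cdh1*, at 98.6 to 162 CPM in *Scnn1b*-Tg and 86.7 to 125 CPM in WT libraries. The part of these genes in the levels of the 5 genes was not tested. Of the resident AM list, 11 of 20 genes had a row, *Siglecf* lay between 238 and 589 CPM, and no gene of that list fell below 86.5 CPM in any library. Values are CPM, the counts of a row relative to the total of its library, scaled with TMM factors. In bulk RNA fewer cells of a type and less RNA per cell cannot be told apart.

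The levels of *Ccl17*, *Ccl9* and *Cxcr1* were above WT in the *Scnn1b*-Tg libraries of every batch. *Ccl3* and *Ccl2* were far higher in the 3 *Scnn1b*-Tg libraries of batch 4 and differed little, or in both directions, in batches 1 to 3. The estimated difference of all 5 genes was positive. A row was called if its Benjamini-Hochberg adjusted p-value was under 0.1 and its log2 fold change above 0.5 in size. By this rule edgeR called 2 of the 5 genes, *Ccl17* and *Cxcr1*, as higher, and 0.407% of the 14255 rows tested were called as higher (0.491% in either direction). Of all rows, 9.36% were higher in each of the 4 batches, as 4 of the 5 genes were, and 16.2% in each of the 3 pairs of batches 1 to 3. The genotype contrast chose the genes, so nothing is read from these shares. The calls moved with the processing: *Cxcr1* was called in 12 of 12 fits that each left out 1 library and *Ccl17* in 3, 0 of the 5 genes were called with a block of 6 pairs, and DESeq2 called 5.

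The genes lie on 3 chromosomes (GENCODE M21, GRCm38, the build of the counts). *Ccl17* is on chr8:94810453-94812036 (plus strand). *Ccl2* is on chr11:82035571-82037453 (plus strand), 8.26 kb before *Ccl7*, and overlaps *Gm17268* on the opposite strand, with which it can share reads because the counts were made without strand. *Ccl9* is on chr11:83572919-83578636 and *Ccl3* on chr11:83647844-83649355, both on the minus strand and 69.2 kb apart, and *Ccl4* lies 13.2 kb beyond *Ccl3*. *Cxcr1* is on chr1:74191785-74194631 (minus strand), 30.5 kb from *Cxcr2*.

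The 250 bases before the RefSeq start (GRCm38.p6) of 4 of the 5 genes are printed 5′ to 3′ on the strand of the gene, so that *Ccl3*, with its large difference in batch 4, can be set beside *Ccl17*, *Ccl9* and *Cxcr1*. The intervals are chr8:94810203-94810452 for *Ccl17*, chr11:83578637-83578886 for *Ccl9*, chr1:74194632-74194881 for *Cxcr1* and chr11:83649379-83649628 for *Ccl3*. Capitals mark matches to the letters searched on both strands.
Ccl17: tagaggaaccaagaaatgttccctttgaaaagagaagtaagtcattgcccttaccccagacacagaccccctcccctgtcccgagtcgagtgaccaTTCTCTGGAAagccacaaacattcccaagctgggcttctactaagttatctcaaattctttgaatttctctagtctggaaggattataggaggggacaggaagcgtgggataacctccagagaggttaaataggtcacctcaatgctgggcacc
Ccl9: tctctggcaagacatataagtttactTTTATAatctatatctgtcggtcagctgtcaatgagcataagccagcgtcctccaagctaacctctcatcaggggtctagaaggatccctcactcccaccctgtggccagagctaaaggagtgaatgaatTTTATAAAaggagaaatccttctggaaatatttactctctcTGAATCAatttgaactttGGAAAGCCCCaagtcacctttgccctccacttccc
Cxcr1: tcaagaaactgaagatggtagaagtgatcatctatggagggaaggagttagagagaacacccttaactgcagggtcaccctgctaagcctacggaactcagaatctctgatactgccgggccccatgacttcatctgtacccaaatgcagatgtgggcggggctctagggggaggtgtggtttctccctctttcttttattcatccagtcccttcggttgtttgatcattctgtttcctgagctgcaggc
Ccl3: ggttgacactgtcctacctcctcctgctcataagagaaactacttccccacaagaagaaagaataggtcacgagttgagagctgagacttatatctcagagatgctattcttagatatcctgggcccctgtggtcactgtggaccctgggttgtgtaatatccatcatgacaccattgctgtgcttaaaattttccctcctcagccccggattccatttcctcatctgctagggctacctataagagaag

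The capitals of *Ccl17* are a match to the STAT6 letters, TTC and GAA with 4 bases between, which 5.85% of 32851 promoter windows of this length hold. The *Ccl9* window holds the AP-1 letters TGANTCA (6.75% of windows), the NF-kB letters, GGG and TTTCC with 2 bases between, on the opposite strand (1.41%) and the TATA box letters TATAAA (12.4%), which overlap with their own match on the opposite strand at 1 of the places. The windows of *Cxcr1* and *Ccl3* hold none of these letters, and neither the C/EBP letters TTGCNNAA (9.56%) nor the PU.1 letters GAGGAAG (10.6%) occur in any of the 4 windows. A match is a description of the sequence, not a bound site.

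**Figure D1:**
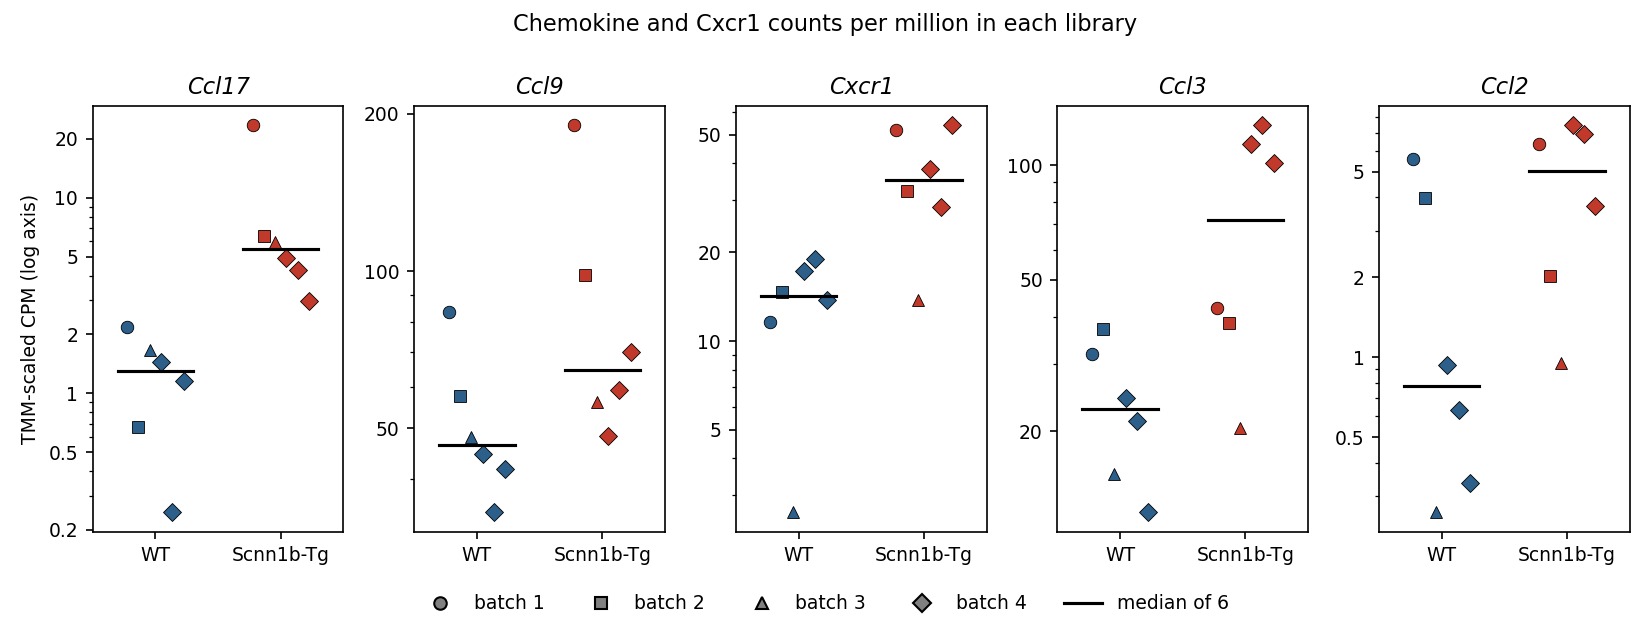
TMM-scaled CPM (log axis, a separate scale per gene) of the 5 genes in each of 12 libraries, 6 WT (blue) and 6 *Scnn1b*-Tg (red); the marker shape gives the batch and the bar the median of 6. The groups of *Ccl17* do not overlap, those of *Cxcr1* overlap through the batch 3 *Scnn1b*-Tg library, and the high *Ccl3* values are the 3 *Scnn1b*-Tg libraries of batch 4.

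*Ccl17* encodes a chemokine made by dendritic cells and by macrophages in type 2 immune responses. Its 6 *Scnn1b*-Tg libraries had 23.4, 6.40, 5.96, 4.92, 4.26 and 2.96 CPM (replicates 1 to 6), and its 6 WT libraries 2.18, 0.669, 1.67, 1.45, 0.246 and 1.16 CPM. All *Scnn1b*-Tg libraries lay above all WT libraries, which 0.231% of the rows tested also did, and the batch 1 *Scnn1b*-Tg library stood well above the other 5. The log2 fold change was 2.46 (standard error 0.43). It was 2.85 (standard error 0.63) within batches 1 to 3 and 2.09 (standard error 0.60) within batch 4. Taken against the WT libraries of its own batch, each *Scnn1b*-Tg library was higher, by 1.83 to 3.43 on the log2 CPM scale. The step thus recurred in every batch on a low level of expression, and the largest was in batch 1.

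The batch 1 *Scnn1b*-Tg library that led *Ccl17* also had the most transcripts of *Cd209a* and *Mgl2*, which encode C-type lectins of dendritic cells and alternatively activated macrophages. These were the 2 genes tested of the 14 on the dendritic cell list. Their summed level was 82.9 CPM in that library and 7.15 CPM in the WT library of batch 1, and it lay from 0.807 to 7.52 CPM in *Scnn1b*-Tg replicates 2 to 6. In batch 4 the sum was 0.807, 3.05 and 4.71 CPM in the *Scnn1b*-Tg libraries and 0.3995, 0.299 and 0.430 CPM in the WT libraries, so it was higher in the *Scnn1b*-Tg libraries there too. With both batch 1 libraries left out, the log2 fold change of *Ccl17* was 2.26 (standard error 0.48). *Flt3*, a growth factor receptor that defines dendritic cells, had a row that failed the filter on low counts, with 413 counts over 12 libraries, 269 of them in the batch 1 *Scnn1b*-Tg library. *Zbtb46* and *Ccr7* had no paired row, and the part of dendritic cells in the level of *Ccl17* was not tested.

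*Ccl9* encodes a ligand of CCR1 found in rodents. Its CPM was 190, 98.2, 56.1, 48.4, 59.2 and 70.1 in *Scnn1b*-Tg replicates 1 to 6, and 83.5, 57.7, 48.1, 44.7, 34.5 and 41.9 in the WT replicates. The groups overlapped, because the WT library of batch 1 was higher than 4 of the *Scnn1b*-Tg libraries of other batches, while inside each batch the *Scnn1b*-Tg libraries were above WT. The log2 fold change was 0.64 (standard error 0.14), the smallest of the 5 genes and the one with the smallest standard error. It was 0.73 (standard error 0.20) within batches 1 to 3 and 0.55 (standard error 0.20) within batch 4. Library by library the difference ranged from 0.22 in batch 3 to 1.19 in batch 1 on the log2 CPM scale.

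*Cxcr1* encodes the only receptor among the 5 genes. The 6 *Scnn1b*-Tg libraries had 51.8, 32.3, 13.8, 38.2, 28.4 and 53.8 CPM, and the 6 WT libraries 11.6, 14.7, 2.63, 17.3, 18.9 and 13.8 CPM. The only *Scnn1b*-Tg library inside the WT range was that of batch 3, and the WT library of the same batch was the lowest of all 12. The log2 fold change was 1.57 (standard error 0.22), with 1.89 (standard error 0.30) within batches 1 to 3 and 1.27 (standard error 0.29) within batch 4. Every *Scnn1b*-Tg library was above its own batch's WT mean, by 0.78 to 2.39 on the log2 CPM scale, and the largest step was in batch 3, where the level was lowest. Unlike those of *Ccl17* and *Ccl9*, the *Cxcr1* level of the batch 1 *Scnn1b*-Tg library was matched by another, replicate 6 of batch 4.

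*Cxcr2*, the neighbouring gene for the related receptor, had 20.6, 31.2, 17.03, 6.91, 9.49 and 22.5 CPM in *Scnn1b*-Tg replicates 1 to 6 and 17.4, 10.01, 8.67, 6.48, 7.15 and 4.86 CPM in WT. It was higher in each of the 4 batches too, but its groups overlapped in batch 4, and it was called by DESeq2 and not by edgeR (log2 fold change 1.01, standard error 0.30). Neutrophils are rich in both receptors. Of the 20 genes of the neutrophil list, 5 were tested, *Cxcr2* among them. Their summed level lay between 313 and 380 CPM in *Scnn1b*-Tg libraries and between 334 and 409 CPM in WT libraries. Most of it was *Fpr2*, a formyl peptide receptor that macrophages also make, and without it the sum of the other 4 genes was 104 to 163 CPM in *Scnn1b*-Tg and 73.6 to 118 CPM in WT libraries. Of the other genes on that list, *Mmp8*, which encodes a neutrophil collagenase, was called as higher (log2 fold change 0.73), and *Csf3r*, the receptor for the growth factor of neutrophils, had a log2 fold change of −0.35 without being called. *Mmp9*, another protease of neutrophils, lay between 0.188 and 1.94 CPM in *Scnn1b*-Tg and between 0 and 0.293 CPM in WT libraries, and *Cd177* failed the filter on low counts, with 703 of its 919 counts in *Scnn1b*-Tg replicate 2. *S100a8*, *S100a9* and *Ly6g*, which define neutrophils, had no paired row, and the part of neutrophils in the level of *Cxcr1* was not tested.

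*Ccl3* encodes macrophage inflammatory protein 1-alpha. In batches 1, 2 and 3 the *Scnn1b*-Tg libraries had 42.1, 38.5 and 20.4 CPM and the WT libraries 31.9, 37.1 and 15.4 CPM. In batch 4 the *Scnn1b*-Tg libraries had 114, 127 and 101 CPM and the WT libraries 24.4, 21.3 and 12.3 CPM. The difference was small in each of the first 3 batches, at 0.05 to 0.40 on the log2 CPM scale, and large in batch 4, at 2.45 to 2.77. The log2 fold change over all 12 libraries, 1.42 (standard error 0.42), combines 0.28 (standard error 0.23) within batches 1 to 3 and 2.56 (standard error 0.24) within batch 4. Over all 12 libraries *Ccl3* was called by DESeq2 and not by edgeR.

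*Ccl2* encodes monocyte chemoattractant protein 1. In batches 1, 2 and 3 the *Scnn1b*-Tg libraries had 6.32, 2.02 and 0.956 CPM and the WT libraries 5.57, 3.98 and 0.261 CPM. In batch 4 they had 7.46, 6.94 and 3.72 CPM against 0.932, 0.634 and 0.337 CPM. Thus *Ccl2* was lower in the *Scnn1b*-Tg library of batch 2, by 0.98 on the log2 CPM scale, near equal in batch 1 and higher in batches 3 and 4. The log2 fold change was 1.87 (standard error 0.69), the largest standard error of the 5 genes, with 0.29 (standard error 0.61) within batches 1 to 3 and 3.24 (standard error 0.62) within batch 4. Over all libraries *Ccl2* was called by DESeq2 and not by edgeR.

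**Figure D2:**
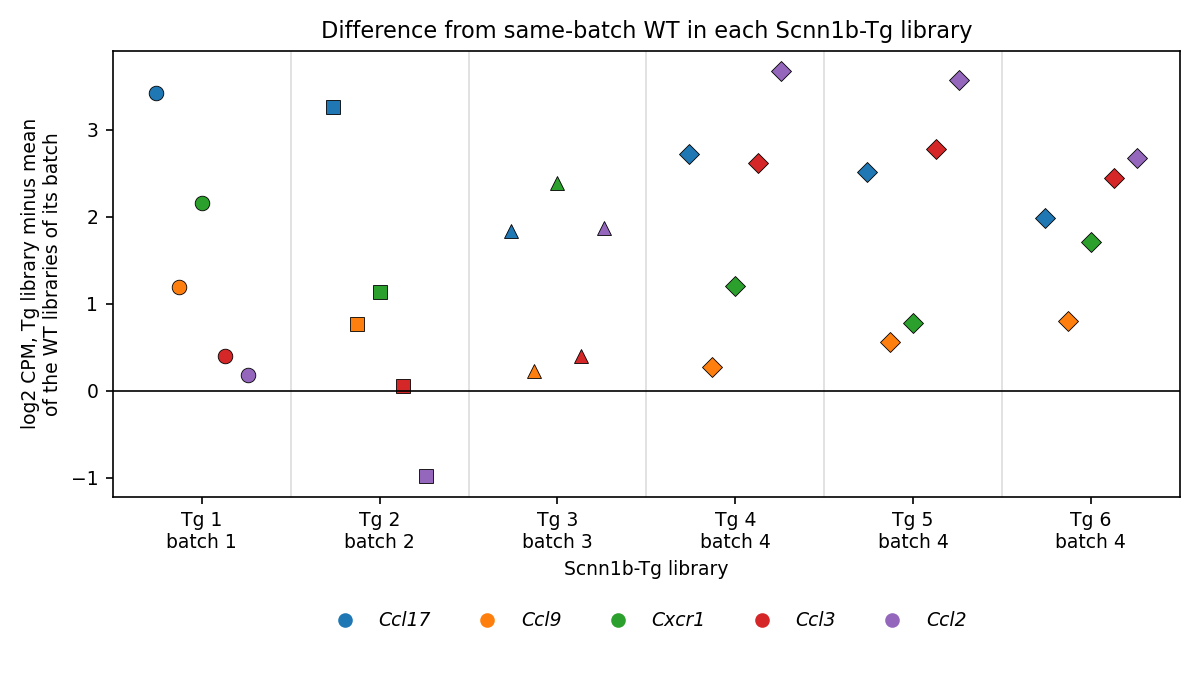
Difference in log2 CPM (no prior count) between each *Scnn1b*-Tg library and the mean of the WT libraries of its batch, for the 5 genes. Batches 1 to 3 have 1 WT library each and batch 4 has 3. *Ccl3* (red) lies at 0.05 to 0.40 in the first 3 batches and at 2.45 to 2.77 in batch 4, whereas *Ccl17* (blue), *Ccl9* (orange) and *Cxcr1* (green) are above 0 in all 6 libraries.

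Whether the genotype difference itself differed between batch 4 and batches 1 to 3 was tested with an added coefficient in the edgeR quasi-likelihood fit across all rows. For *Ccl3* the difference was larger in batch 4 by 2.27 on the log2 scale (standard error 0.33, adjusted p = 0.0802), past the threshold of 0.1, as it was for 0.133% of all rows. For *Ccl2* the estimate was 2.95 (standard error 0.85), with an edgeR p of 0.00749 that did not pass after adjustment (adjusted p = 0.521). DESeq2 did call this difference of *Ccl2*. The estimates of *Ccl17* (−0.76, standard error 0.83), *Ccl9* (−0.17, standard error 0.28) and *Cxcr1* (−0.62, standard error 0.41) were negative and did not pass, with edgeR adjusted p-values of 0.896, 0.939 and 0.782. Among the 10 other chemokine and receptor genes tested, *Cxcl2*, a ligand of CXCR2, passed as well (2.71, standard error 0.41, edgeR adjusted p = 0.0927). DESeq2 called 2 of the 10, *Cxcl2* and *Ccl7*, the second of which had 0 counts in the WT libraries of batch 4. The *Cxcl2* level in batch 4 was 23.1 ± 8.91 CPM in *Scnn1b*-Tg and 4.56 ± 1.07 CPM in WT (SD, n = 3 each). For batches 1 to 3 alone, *Cxcl2* had a log2 fold change of −0.37 (standard error 0.29). The call of *Ccl3* was kept in 3 of 12 fits that each left out 1 library, with estimates between 2.03 and 2.48. It was lost in the other fits, those without either batch 1 library among them, and without both batch 1 libraries the estimate was 2.34 (adjusted p = 0.140, edgeR).

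**Figure D3:**
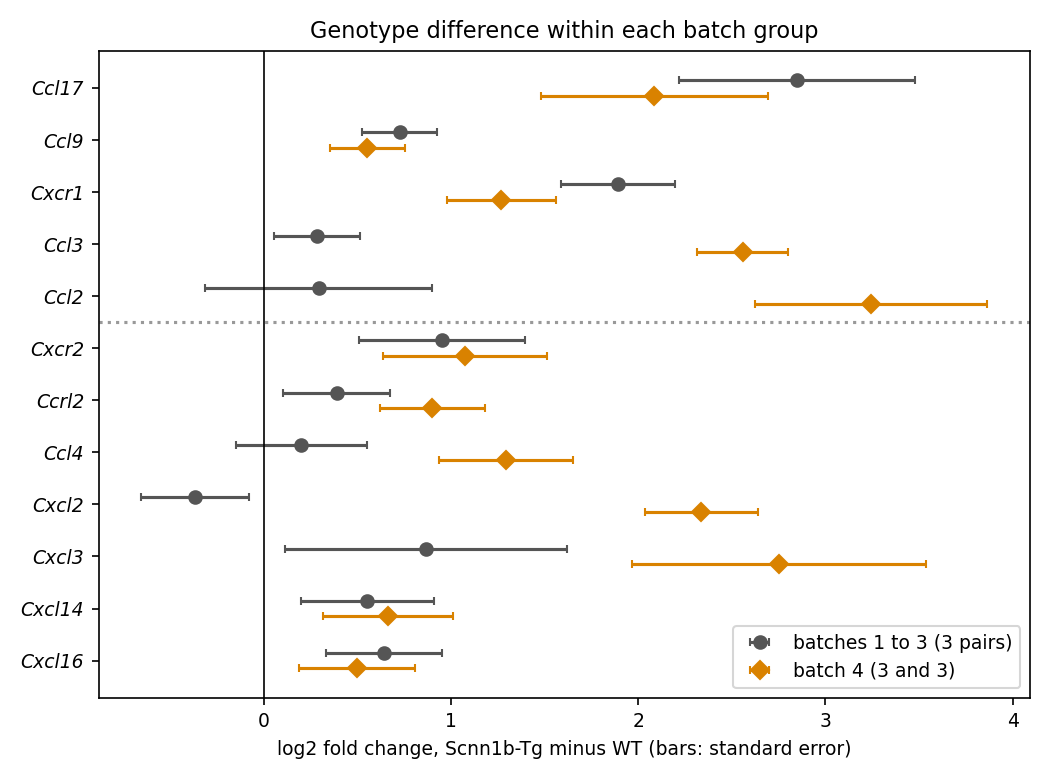
Log2 fold change of *Scnn1b*-Tg minus WT (horizontal axis, bars are standard errors) within batches 1 to 3 (grey circles, 3 pairs) and within batch 4 (orange diamonds, 3 and 3 libraries), for the 5 genes above the dotted line and 7 further chemokine and receptor genes below it. *Ccl3*, *Ccl2* and *Cxcl2* are at 2.56, 3.24 and 2.34 in batch 4 and at 0.28, 0.29 and −0.37 in batches 1 to 3, while the 2 estimates of *Ccl17*, *Ccl9*, *Cxcr1* and *Cxcr2* lie within 1 log2 unit of each other.

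Genes of the early response to stress and cell dissociation were also higher than WT in the 3 *Scnn1b*-Tg libraries of batch 4. Of the 18 genes of that list, 7 were tested: *Fosb*, *Egr2*, *Atf3*, *Ier3*, *Zfp36*, *Hspa1a* and *Socs3*. In batch 4 their summed level was 900 to 1137 CPM in the *Scnn1b*-Tg libraries and 430 to 473 CPM in the WT libraries. In the other batches it was 324 to 435 CPM and 293 to 410 CPM. In batch 4 all 7 were higher in the 3 *Scnn1b*-Tg libraries than in the 3 WT libraries without overlap, as were all 5 genes described here, and 8.47% of the rows tested. Against the other batches they did not all stand high, and *Ier3* was at 17.3 to 21.7 CPM in those 3 libraries and at 24.5 to 53.8 CPM in the 6 libraries of batches 1 to 3. *Fosb*, a subunit of AP-1, passed the test of the difference between batch 4 and batches 1 to 3 (1.78, standard error 0.26, edgeR adjusted p = 0.0802). *Zfp36*, which encodes the mRNA-destabilizing protein tristetraprolin, did not (0.85, standard error 0.14, edgeR adjusted p = 0.119). The level of *Zfp36* was 534, 543 and 462 CPM in the *Scnn1b*-Tg libraries of batch 4 and between 214 and 286 CPM in the 6 WT libraries. The part of this response in the levels of *Ccl3* and *Ccl2* was not tested.

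**Figure D4:**
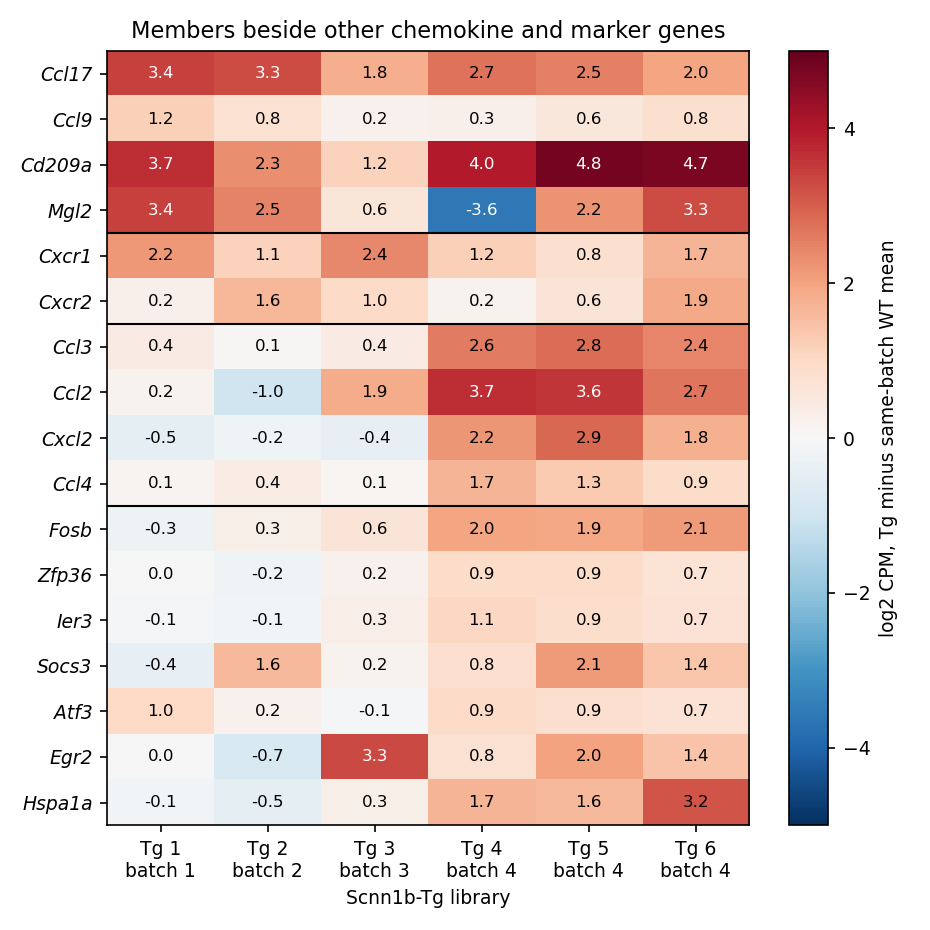
Difference in log2 CPM between each *Scnn1b*-Tg library (columns) and the mean of the WT libraries of its batch. A prior count of 2 was used only for *Cd209a* and *Mgl2*, which had 0 counts in some libraries. Rows, from the top, are *Ccl17* and *Ccl9* with *Cd209a* and *Mgl2*, *Cxcr1* with *Cxcr2*, *Ccl3* and *Ccl2* with *Cxcl2* and *Ccl4*, and the 7 tested genes of the dissociation response list. *Ccl3*, *Ccl2*, *Cxcl2* and *Fosb* are red in the 3 batch 4 columns and pale or mixed in batches 1 to 3; *Mgl2* in replicate 4 and *Cd209a* in 2 of the 3 WT libraries of batch 4 had 0 counts, so those cells depend on the prior count.

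The libraries were also compared over what remained of each gene's log2 CPM after the means of batch and genotype were removed, with 12 libraries and 7 residual degrees of freedom. *Ccl2* and *Ccl3* had a Pearson r of 0.91 and *Ccl17* and *Ccl9* one of 0.52, and the other 8 pairs lay between −0.48 and 0.11. Because 1 genotype mean was removed for all batches, genes whose genotype difference was larger in batch 4 share that in these residuals. For *Ccl3* the 5 named rows most like it were *Trib1* (r = 0.95), *Hspa8* (0.95), *Rnu3b2* (0.94), *Cxcl2* (0.93) and *Mia3* (0.92). For *Ccl2* they were *Hcfc2* (0.94), *Mapkap1* (0.94), *Zfp36* (0.93), *Ccl7* (0.92) and *Ccl3* (0.91). The most like *Ccl17* were *Sphk2* (0.90), *Sbk2* (0.90), *A430093F15Rik* (0.89), *Procr* (0.83) and *Gm10357* (0.83). *Ccl9* was most like *Cd81* (0.91), *Trib2* (0.90), *BC017158* (0.87), *Cdk6* (0.85) and *Akap10* (0.85), and *Cxcr1* most like *Slc25a22* (0.97), *D630044L22Rik* (0.96), *A930017K11Rik* (0.95), *Lasp1* (0.92) and *Tmem201* (0.91). The 95th percentile of r over the 1917 named rows tested was between 0.59 and 0.72 for the 5 genes. All points share the libraries and their depth.

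The level itself, taken over both genotypes, also differed between the batches, as it did for 53.3% of all rows by the same thresholds (27.6% lower and 25.7% higher in batch 4). *Ccl9* was lower in batch 4 than in the mean of batches 1 to 3 by a log2 difference of −0.70 (standard error 0.14, edgeR adjusted p = 0.00131), and *Ccl17* by −0.93 (standard error 0.41, edgeR adjusted p = 0.0787). *Cxcr1* was higher in batch 4 by 0.78 (standard error 0.22, edgeR adjusted p = 0.0114). For *Ccl3* (0.69, standard error 0.42) and *Ccl2* (−0.16, standard error 0.65) the edgeR adjusted p-values were 0.183 and 0.846. Without both batch 1 libraries the differences of *Ccl17* and *Ccl9* were −0.40 and −0.32, below 0.5 in size, and were not called. With 1 library left out the call of *Ccl17* was kept in 6 of 12 fits (adjusted p up to 0.229, edgeR). Preparation, sequencing and animals cannot be told apart among the batches.

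Per kilobase of exon, *Ccl3* had the highest mean level of the 5 genes and *Ccl2* the lowest in both genotypes. Single libraries departed from this. *Ccl9* was above *Ccl3* in *Scnn1b*-Tg replicate 1 (62.4 against 55.0 CPM per kb), and *Ccl2* was above *Ccl17* in WT replicates 1, 2 and 5. In WT AMs the order was *Ccl3* (31.0 ± 12.4 CPM per kb, SD, n = 6), *Ccl9* (16.99 ± 5.68), *Cxcr1* (8.82 ± 3.87), *Ccl17* (2.39 ± 1.36) and *Ccl2* (1.72 ± 1.98). In *Scnn1b*-Tg AMs the means over all batches, given for the genes in the same sequence, were 96.4 ± 59.2, 28.6 ± 17.5, 24.4 ± 10.1, 15.5 ± 14.9 and 4.01 ± 2.40 CPM per kb (SD, n = 6). The order of the middle genes in *Scnn1b*-Tg AMs differed by batch. In batch 4 *Cxcr1* (26.9 ± 8.59 CPM per kb, SD, n = 3) was above *Ccl9* (19.5 ± 3.55). In each of the 3 libraries of batches 1 to 3 *Ccl9* was above *Cxcr1*, and the mean of *Ccl17* (23.2 ± 19.4) was close to that of *Cxcr1* (21.9 ± 12.7) through replicate 1. Over the 5 libraries without replicate 1 *Ccl17* was at 9.53 ± 2.67 and *Cxcr1* at 22.3 ± 9.78. Over all 6 libraries, the ranges of mean ± SD of neighbours in the order overlapped, except those of *Cxcr1* and *Ccl17* in WT AMs.

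The wider chemokine system was covered in part, since only named rows could be used. Of 21 CC chemokine genes 6 were tested, of 17 genes of the CXC, CX3C and XC chemokines 5, and of 23 chemokine receptor genes 4, and *Cxcl5* and *Cxcl17* had a row that failed the filter on low counts. The 10 of these that are not among the 5 genes were higher in *Scnn1b*-Tg in their estimate. Of them 0 were called by edgeR and 2, *Cxcl3* and *Cxcr2*, by DESeq2. The unadjusted edgeR p-value was under 0.05 for 6 of them. Over all rows, DESeq2 called 1.3% and the unadjusted edgeR p-value was under 0.05 for 9.38%, and nothing is read from the counts because every named gene comes from a list selected for small p-values. Their median log2 fold change was 1.00, against 0.00 over all rows tested and 0.19 over all named rows. Their median was 0.52 within batches 1 to 3 and 1.82 within batch 4. *Ccl4*, which encodes macrophage inflammatory protein 1-beta, had a log2 fold change of 0.74 (standard error 0.30), with 0.20 within batches 1 to 3 and 1.29 within batch 4. *Ccl7*, the neighbour of *Ccl2*, had 0 counts in the 3 WT libraries of batch 4 and between 0.221 and 0.773 CPM in the 3 *Scnn1b*-Tg libraries, so that no fold change is given there. *Cxcl3* had a log2 fold change of 1.82 (standard error 0.62), *Ccrl2*, a receptor-like protein that binds chemerin, one of 0.65 (standard error 0.21), *Cxcl16* one of 0.57 (standard error 0.21) and *Cxcl14* one of 0.61 (standard error 0.24). *Cxcl1* and *Cxcr6* were near the lower end of detection, with 0 counts in several libraries.

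Of 34 genes that carry the chemokine signal inside the cell, 6 were tested. By edgeR 0 were called, with 4 unadjusted p-values under 0.05, and DESeq2 called 2, *Arrb1* and *Rgs1*, beside the same shares over all rows and with the same selection. The median log2 fold change was 0.21. *Arrb1*, which encodes beta-arrestin 1, a protein that uncouples chemokine receptors, had a log2 fold change of −1.88 (standard error 0.55), and *Rgs1*, a regulator that shortens G protein signalling, one of 0.94 (standard error 0.21). *Rac2*, a GTPase of leukocyte migration, had one of 0.27 (standard error 0.08). The test of the difference between batch 4 and batches 1 to 3 gave 0 calls among the 6 with edgeR and with DESeq2. With edgeR 0 had an unadjusted p-value under 0.05, as 7.46% of all rows had.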

How the data were processed

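RNAseq counts of AMs (6 *Scnn1b*-Tg and 6 WT libraries of sorted cells) were analysed, with genotype and batch taken from the labels. Reads had been mapped to mm10 by the authors (HISAT2, strand ignored) and summed per gene with StringTie on GENCODE M20. The deposited counts are whole numbers that StringTie's script derives from coverage, without normalization, and totals per library are therefore not numbers of reads. The table names no genes. Fitting 12 weights so that a weighted row sum equals the mean count of a gene in the study's supplementary list gave each of its 1999 genes a row (largest relative difference 5.5e-15, next closest row at least 2.9e-07), and with 1000 genes held out of the fit, 1000 found the row again. The list was used for identity only. The other 17162 rows have no name, and *Ccl22* among others was not analysed here.

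Counts were tested with edgeR 4.0.16 in R 4.3.3 (TMM factors, filterByExpr by genotype, quasi-likelihood test, Benjamini-Hochberg adjustment over 14255 rows), with batch (4 levels) as covariate. The F statistic and the fold change gave each standard error. Log2 CPM used a prior count of 2, except in differences from same-batch WT for genes with counts in every library, which used none. DESeq2 1.42.0 was an alternative. Others covered scaling, filters, the block, the threshold, the batches and each library left out, and leaving out both batch 1 libraries and a filter by the design were chosen after seeing the data. Procedures were tested on simulated data. Named are the 5 genes, list genes with a row, and the 5 rows most like each gene in residuals. The 5 genes and all lists were chosen with earlier results of these data known. The other marker lists gave summed levels of 22355 to 59114 CPM in *Scnn1b*-Tg and 21517 to 32100 CPM in WT for monocytes (3 genes). Almost all of this was *Chil3*, which is also on the resident AM list, and *Ace* with *Vcan* gave 20.8 to 50.9 and 20.1 to 49.6 CPM. The sums were 932 to 1507 and 1143 to 1760 CPM for eosinophils (2 genes), and 101 to 234 and 88.4 to 137 CPM for epithelium (3 genes, most of it *Cdh1*). The batch numbers pair the libraries of batches 1 to 3 by the labels, and the deviations of the pairs from the genotype means correlated at 0.671, 0.668 and 0.519, against −0.0712, −0.0057 and −0.0166 for equal numbers within batch 4, which do not pair them. No 2 libraries of 1 genotype agreed within sampling noise (lowest chi-square per row 52.5 over 30 pairs). The study states that its experiments had biological replicates and its model used littermates, while the labels do not tie each library to a mouse.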

Additional observations from a re-analysis of the deposited data

Results flagged for a closer look

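In the *Scnn1b*-Tg group, replicate 1 (batch 1) stood apart from the other 5 libraries for *Ccl17* (23.4 CPM), *Ccl9* (190 CPM) and *Cxcr6* (3.505 CPM), a receptor for CXCL16. Replicate 4 did so for *Cxcl1* (2.74 CPM) and replicate 5 for *Cxcl3* (13.2 CPM), both neutrophil-attracting chemokines. Among the WT libraries, replicate 2 did so for *Cxcl1* (1.77 CPM). These 6 groups were marked of 30 groups of 6 libraries examined (15 genes in each genotype), 3 of them through *Scnn1b*-Tg replicate 1. The share that chance would mark was not computed from these data, so nothing is read from the count. The cause was not tested.

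For 2 genes the data showed a genotype difference that was larger in batch 4 than in batches 1 to 3 by the edgeR test of the difference itself, *Ccl3* by 2.27 and *Cxcl2* by 2.71 on the log2 scale, of 15 chemokine and receptor genes examined. In batch 4 each of the 3 *Scnn1b*-Tg libraries lay above each of the 3 WT libraries for both genes. Flow cell and genotype cannot be told apart there. The call of *Ccl3* was kept in 3 of 12 fits that each left out 1 library, and it was lost with no filter on low counts.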

How the results depend on the processing

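All 110 log2 fold changes of the 5 genes under the alternatives were positive. In the main comparison 70 rows were called over all rows, against 248 with DESeq2, 42 at an adjusted p-value under 0.05, 32 without both batch 1 libraries, and between 26 (without *Scnn1b*-Tg replicate 1) and 54 without 1 library. With batch 4 only, 52 rows were called, with *Ccl2* and *Ccl3* and not *Ccl17* and *Cxcr1* among them, and with at least 1 CPM in at least 6 libraries 85 rows, with *Ccl9* as well as *Ccl17* and *Cxcr1*. With batches 1 to 3 only, edgeR called 0 rows (994 with an unadjusted p-value under 0.05). Of the 5 genes, 2 were called in the main comparison, 5 with DESeq2, 1 (*Cxcr1*) at 0.05 and without both batch 1 libraries, 0 with batches 1 to 3 only, and between 1 and 2 without 1 library. *Cxcr1* was called in 12 of these 12 fits and *Ccl17* in 3. The batches pair the libraries: with no replicate block, edgeR called 0 rows (270 with an unadjusted p-value below 0.05) and 0 of the 5 genes, and with a replicate block of 6 pairs, 29 rows and 0 of the 5 genes.

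The difference between batch 4 and batches 1 to 3 was called for 19 rows, for 11 with no filter, for 237 with DESeq2 and for between 7 and 58 without 1 library. That of *Ccl3* was 2.26 and not called with no filter (adjusted p = 0.10, edgeR), 2.34 and not called without both batch 1 libraries, and between 2.03 and 2.48 without 1 library. That of *Ccl2* was 2.98 and called with DESeq2. The level difference of *Ccl3* was called with DESeq2 (0.68) and lay between 0.42 and 0.97 without 1 library. That of *Ccl17* was −0.40 and that of *Ccl9* −0.32 without both batch 1 libraries, both then not called, and that of *Ccl17* lay between −1.16 and −0.68 without 1 library and was called in 6 of those 12 fits. The causes were not tested.

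Low counts limit *Ccl7*, *Cxcl1* and *Cxcr6*, each with 0 counts in some libraries.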
